A study of Sus scrofa with 10 samples.

Results

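Cytosolic ribosomal protein genes encode the proteins that coat the ribosomal RNAs of the large and the small ribosomal subunit. The members were the gene rows whose deposited name was RPL or RPS followed by a number and at most a suffix letter or digit, RPLP0 to RPLP2, or RPSA. They numbered 59 of 35670 gene identifiers, 31 of the large and 28 of the small subunit, and each symbol had 1 row. Of these, 58 passed the filter on low counts, 30 large and 28 small. The remaining member, RPL10L, an intron-poor copy of RPL10 that is best known from testis, was listed at 0 in all 10 libraries. Mitochondrial ribosomal proteins and ribosomal protein S6 kinases are outside the rule.

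Each ribosome holds a single copy of most of these proteins, and the acidic stalk proteins are present in several copies. Their messages are among the most abundant of most cells, many carry a terminal oligopyrimidine tract through which mTOR controls their translation, and the genes are short and often host small nucleolar RNAs in their introns. In heart muscle, the demand for ribosomes is known to rise with growth of the cells. Nuclear RNA holds transcripts before export, so levels in nuclei stand closer to synthesis and processing than to the translated pool.

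The data were RNA-seq profiles of nuclear RNA from sorted heart cardiomyocytes of wild-type minipigs (Sus scrofa). The control group of 5 libraries (numbers 1 to 5) had received phosphate-buffered saline, the DOCA group of 2 libraries (6 and 7) deoxycorticosterone acetate, a mineralocorticoid often used to raise blood pressure, and the DOCA plus JK07 group of 3 libraries (8 to 10) DOCA together with JK07, an agonist of the receptor ERBB4. The series is about atrial remodelling and atrial fibrillation. The sources used here give no age, dose, time or heart chamber. The labels do not tie libraries to animals. A p-value here refers to the variation among these libraries, and that may be technical.

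The libraries held 28147230 to 106382357 estimated counts, of which 77.6 to 90.8% lay on 2 scaffolds of ribosomal RNA. The mitochondrial genome took 2.58 and 0.488% of the counts off these scaffolds in DOCA libraries 6 and 7, and 3.69 to 8.26% elsewhere. Without both, the DOCA libraries held 6871841 and 3296814 counts, and the other 8 held 8668685 to 13942689. Of the 17251 genes tested, 4791 (27.8%) were listed at 0 in both DOCA libraries, against 168 (0.974%) at 0 in every control and 426 (2.47%) in every JK07 library. In libraries 6 and 7, 34.9 and 39.1% of genes were at 0 while 0.974 and 1.38% held more than 0 and under 10 counts, against 5.48 to 15.6% and 0.574 to 1.41% elsewhere. With so few low values beside the zeros, a listed 0 is not read here as the absence of reads. The DOCA libraries thus stood apart, and the part of depth in the results below was not tested. Of the cardiomyocyte markers, 8 of 10 were matched and none passed the test in any comparison. Their summed level was 4018 to 4912 counts-per-million (CPM, scaled by TMM) in control, 3367 to 5363 in DOCA and 4815 to 7952 in DOCA plus JK07. All 8 fibroblast markers were also detected, with sums of 593 to 2334, 564 to 2203 and 589 to 1494 CPM in the same order, and none passed. Of 6 smooth muscle and pericyte markers, ABCC9 and RGS5 fell in DOCA against control and rose with JK07 added, and the list summed to 72.4 to 130.3, 65.9 to 69.3 and 99.05 to 123.6 CPM. Among 8 endothelial, 7 macrophage and 3 tested lymphocyte markers, EMCN, LYVE1 and CD247 were each called lower in DOCA, where all 3 were listed at 0, and EMCN and CD247 were called higher with JK07 added. The part of these cell types in the members' values was not tested. In bulk RNA, fewer cells of a type and less RNA per cell cannot be told apart.

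The members were spread over 16 chromosomes and were short. Their median span was 5461 bp, against 19815 bp over all named identifiers, and 58 of 59 spanned 15 kb or less. The exception was RPS3A, whose model on chromosome 8 (77889607 to 78023346, minus strand, Sscrofa11.1) spanned 133740 bp and overlapped LRBA on the opposite strand. The sources used here do not say whether counting used strand. Reads of overlapping genes therefore cannot be told apart, and 9 members overlapped another gene longer than 1 kb other than a small nucleolar RNA. Ribosomal protein genes also have many near-identical processed copies in mammalian genomes, among which reads can be split.

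In control cardiomyocyte nuclei, the stalk proteins RPLP1 and RPLP0 were at the top of the family per length of transcript. RPLP1 measured 47.7 ± 7.96 transcripts-per-million (TPM; SD, n = 5) and RPLP0, the anchor of the stalk that binds elongation factors, measured 38.1 ± 8.61 TPM. RPL10, which joins the large subunit late and lies near the peptidyl transferase centre, followed at 37.4 ± 12.4 TPM, RPL23 at 35.1 ± 4.35, RPS28 at 34.5 ± 6.88, RPL6 at 34.3 ± 6.08 and RPS3 at 33.3 ± 5.81 TPM. RPLP1 stood above RPLP0 by more than either SD, and the other neighbours named here differed by less than their SDs. The median over the 58 detected members was 13.2 TPM, 13.4 for the large and 12.8 for the small subunit. The lowest levels above 0 were 0.569 TPM for RPS27L and 1.52 TPM for RPL7L1, both paralogs. The detected members thus spanned 0.569 to 47.7 TPM.

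**Figure D1:**
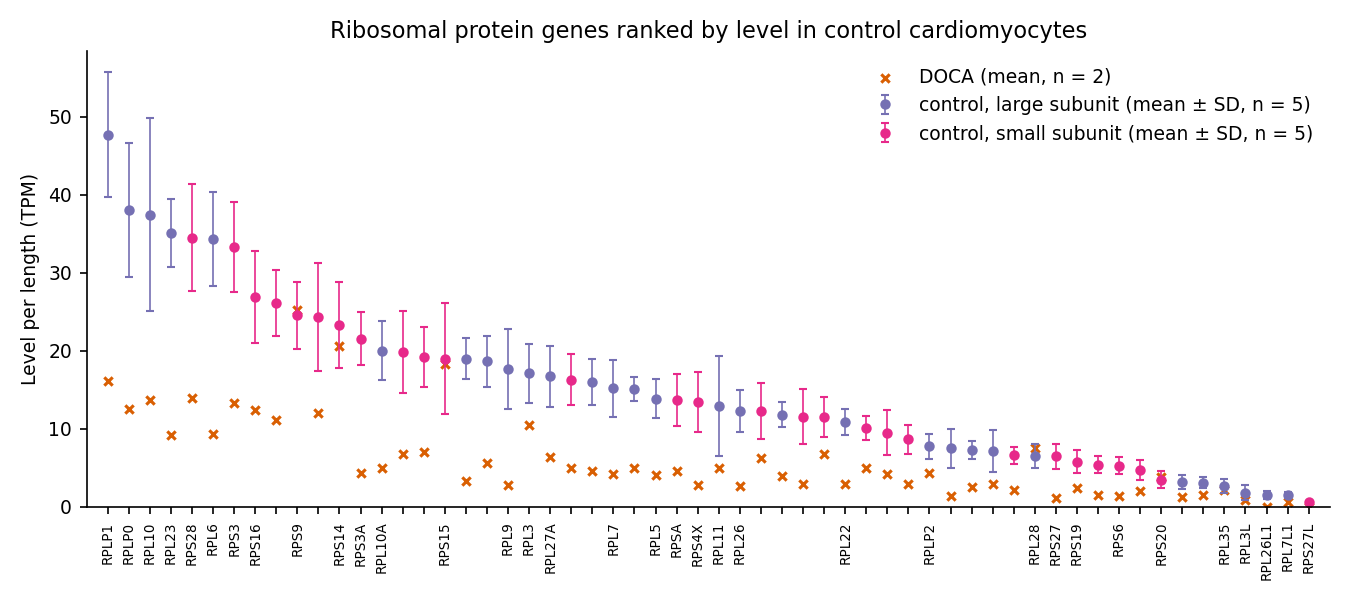
Level per length (TPM) of the 58 detected ribosomal protein genes, ranked by the mean of the 5 control libraries, with names only for genes described in the text; circles and bars are control means ± SD, coloured by subunit, and crosses are the means of the 2 DOCA libraries. RPLP1 leads at 47.7 TPM, RPS27L ends the order at 0.569 TPM, and RPS9, RPS14, RPS15, RPS20 and RPL28 are among the genes with crosses within 1 control SD.

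Ribosomal protein transcripts were lower in the DOCA libraries than in control. The summed level of the large subunit genes was 365, 347, 290, 294 and 402 CPM in control libraries 1 to 5, 174 and 177 CPM in DOCA libraries 6 and 7, and 207, 272 and 254 CPM in JK07 libraries 8 to 10. The 3 groups did not overlap, with DOCA lowest and JK07 between. The small subunit genes summed to 306, 291, 268, 229 and 356 CPM in control, 163 and 215 CPM in DOCA, and 193, 251 and 238 CPM with JK07. Here DOCA lay below every control, and the JK07 group overlapped both. The ratio of means of DOCA to control was 0.518 ± 0.0729 (propagated SD) for the large and 0.653 ± 0.165 for the small subunit.

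As a share of counts outside ribosomal RNA and the mitochondrial genome, all members together took 0.387 to 0.560% in control, 0.192 and 0.356% in DOCA libraries 6 and 7, and 0.252 to 0.347% with JK07. On this scale too, every DOCA and every JK07 library lay below every control. The DOCA libraries also differed from each other, library 7 lying above all 3 JK07 libraries and library 6 below them. The large subunit supplied 50.8 to 55.05% of the members' TPM in control, 46.8 and 41.6% in DOCA libraries 6 and 7, and 49.8 to 51.7% with JK07. This share was lower in both DOCA libraries than in the other 8, which is given as a description without a test.

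**Figure D2:**
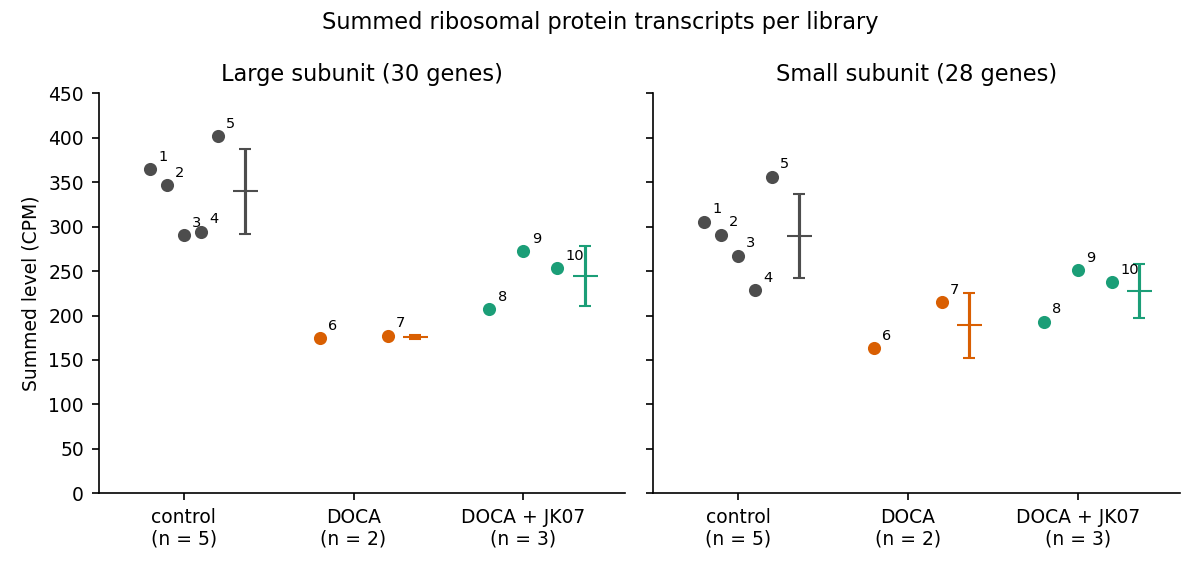
Summed level (CPM) of the 30 large subunit genes and the 28 small subunit genes in each library, with library numbers; lines beside the points are group means ± SD. The large subunit sums of DOCA libraries 6 and 7 are 174 and 177 CPM, below every other library, while the small subunit sum of library 7, 215 CPM, lies within the JK07 range.

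Between DOCA and control, 36 of 58 members fell and 0 rose at an adjusted p under 0.05 (edgeR's quasi-likelihood test, adjusted by Benjamini-Hochberg over 17251 genes). For the large subunit these were 20 of 30 with a median log2 fold change of -1.15, and for the small subunit 16 of 28 with a median of -0.88. Of all genes tested, 19.7% were called lower and 5.73% higher, with a median of -0.63. The small subunit median lay 0.25 below that of all genes, but without library 6 it was -0.90 against -0.95, and with quality weights per library -0.84 against -0.81. Genes listed at 0 in both DOCA libraries make up much of that background. Among the 12460 other genes tested, 11.02% were called lower and the median was -0.12, while 34 of the 56 members among them fell (60.7%), with a median of -1.04. That subset was chosen by the DOCA values under test, which by itself lowers its share called lower. Under a stricter filter, 1 CPM or more in at least 5 libraries, 35 of 57 members and 23.7% of 12638 genes were called lower. The medians there were -0.98 and -0.37. Named genes spanning 15 kb or less, the size class of the members, were called lower in 11.5% of 4206, with a median of -0.09. In 42 members, 23 large and 19 small, both DOCA libraries lay below every control, which held for 27.6% of all genes. With quality weights per library (limma-voom) 0 members passed at an adjusted p under 0.05, and 29 were lower at an unadjusted p under 0.05, against 15.3% of all genes in that fit.

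**Figure D3:**
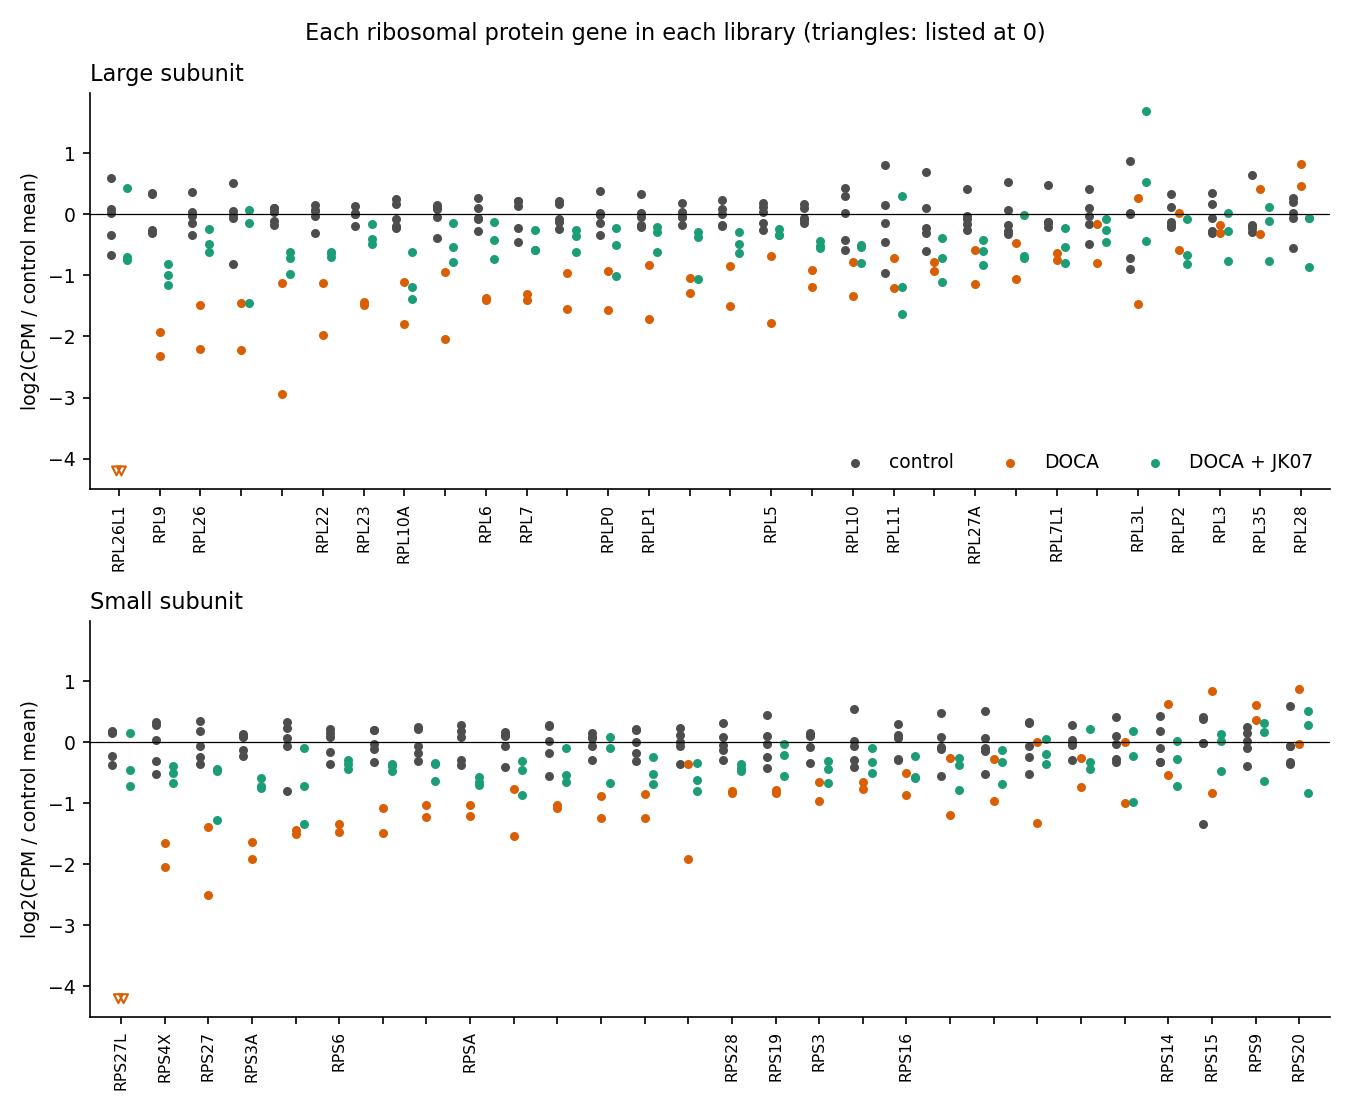
Level of each tested ribosomal protein gene in each library as log2 of its CPM over the control mean, ordered within each subunit by the fold change of DOCA against control, with names only for genes described in the text; colours mark groups and triangles mark libraries listed at 0. Most DOCA points lie 1 or more log2 units below the control mean on the left of each row, and those of RPL28, RPS9 and, in library 7, RPS20, RPS15 and RPS14 lie above it on the right.

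Among large subunit genes, RPL23, a protein near the polypeptide exit tunnel (chromosome 12, 23279965 to 23285515, plus strand), had the lowest adjusted p. It measured 12.1, 11.2, 9.69, 11.11 and 11.2 CPM in control, 3.97 and 4.08 CPM in DOCA, and 7.87, 8.35 and 9.89 CPM with JK07. The DOCA libraries were close to each other and lay below both other groups. RPL23 fell by 1.46 on the log2 scale (SE 0.17, edgeR adjusted p = 0.000216).

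RPL9 (chromosome 8, 30694388 to 30699189) had the deepest fall of the members detected in every group. Its values were 9.08, 9.18, 5.798, 6.02 and 5.86 CPM in control, 1.89 and 1.44 CPM in DOCA, and 3.23, 4.10 and 3.60 CPM with JK07, so that the 3 groups did not overlap. RPL9 fell by 2.11 (SE 0.30, edgeR adjusted p = 0.000777). RPL6, a protein of the solvent side of the large subunit, measured 17.1 to 24.9 CPM in control, 7.99 and 7.86 CPM in DOCA and 12.5 to 19.0 CPM with JK07, and fell by 1.39 (edgeR adjusted p = 0.00133). RPL26 near the exit tunnel fell by 1.80 (adjusted p = 0.00134), from 7.32 to 11.97 CPM in control to 2.00 and 3.31 CPM in DOCA. RPL7 fell by 1.35 (adjusted p = 0.00255), from 12.4 to 19.8 CPM to 6.88 and 6.46 CPM.

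Of the stalk proteins, RPLP1 fell by 1.20 (edgeR adjusted p = 0.0119), with 14.4, 14.7, 16.9, 16.1 and 21.0 CPM in control, 5.09 and 9.40 CPM in DOCA, and 10.8, 13.6 and 14.4 CPM with JK07. RPLP0 fell by 1.21 (adjusted p = 0.0161), from 22.5 to 37.0 CPM to 9.65 and 15.1 CPM. Library 6 was the lower of the DOCA pair for both. Without library 6, RPLP1 was at -0.82 (adjusted p = 0.058) and RPLP0 at -0.92 (adjusted p = 0.102), and neither passed. Their partner RPLP2 measured 6.47 to 9.41 CPM in control and 7.60 and 5.02 CPM in DOCA, with overlapping groups and a log2 fold change of -0.25 (adjusted p = 0.529), which was 0.01 without library 7. Whether RPLP2 and its partners differ in their change was not tested.

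RPL5 and RPL11 bind 5S ribosomal RNA and, when free of ribosomes, the p53 regulator MDM2. RPL5 fell by 1.12 (edgeR adjusted p = 0.0185), from 17.2 to 23.5 CPM in control to 12.9 and 6.02 CPM in DOCA, where library 7 was the lower. DIPK1A overlaps RPL5 on the opposite strand. DIPK1A measured 0 to 0.960 CPM in control and was listed at 0 in both DOCA libraries, and its part in the RPL5 value was not tested. RPL11 spread from 9.15 to 30.8 CPM in control, with 7.70 and 10.8 CPM in DOCA, and its log2 fold change of -0.94 did not pass (adjusted p = 0.29). RPL10 passed narrowly, at -1.03 (adjusted p = 0.0419). Its call was lost on leaving out any of libraries 1, 2, 5, 6, 8, 9 or 10 in turn, with adjusted p up to 0.207 without library 6.

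Among small subunit genes, RPS3A, a component near the mRNA exit, measured 14.8, 14.4, 12.2, 11.5 and 14.2 CPM in control, 4.33 and 3.58 CPM in DOCA, and 7.98, 8.19 and 8.92 CPM with JK07. The 3 groups did not overlap. RPS3A fell by 1.76 (SE 0.18, edgeR adjusted p = 0.000104). LRBA, which overlaps it on the opposite strand, also fell by 1.35 (adjusted p = 0.00241), and its part in the RPS3A value was not tested.

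RPS6, the classic substrate of S6 kinases (chromosome 1, 203444450 to 203451468), measured 17.4, 18.1, 12.7, 14.6 and 18.9 CPM in control, 5.89 and 6.49 CPM in DOCA, and 12.1, 13.3 and 12.8 CPM with JK07. It fell by 1.40 (SE 0.20, edgeR adjusted p = 0.000681). DENND4C, on the opposite strand of the same locus, fell by 1.75 (adjusted p = 0.00473), and its part was likewise not tested. RPS4X, the X-linked S4 protein (chromosome X, 58149318 to 58155157), fell by 1.83 (adjusted p = 0.00135), from 8.69 to 15.7 CPM to 3.02 and 3.98 CPM. RPSA, which is also known as a laminin receptor precursor, fell by 1.11 (adjusted p = 0.00536). RPSA measured 9.33 to 14.6 CPM in control, 5.22 and 5.89 CPM in DOCA, and 7.41 to 8.06 CPM with JK07, again without overlap.

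RPS28, RPS3, RPS19 and RPS16 had smaller fold changes than RPS3A, RPS6, RPS4X and RPSA. RPS28 fell by 0.82 (edgeR adjusted p = 0.0159), from 6.08 to 9.26 CPM to 4.17 and 4.28 CPM, and was at 0.0517 without library 6. RPS3, which lies at the mRNA entry and also acts in DNA repair, fell by 0.80 (adjusted p = 0.0156), from 21.1 to 29.5 CPM to 16.9 and 13.7 CPM, and was at an adjusted p of 0.0813 without library 7. RPS19, the gene most often mutated in Diamond-Blackfan anaemia, fell by 0.81 (adjusted p = 0.047), a call that remained only when library 4 was left out, among all 10 libraries left out in turn. RPS16 measured 9.54 to 14.4 CPM in control and 6.45 and 8.23 CPM in DOCA, and its log2 fold change of -0.68 did not pass (adjusted p = 0.0555).

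A few members did not follow. RPS9, which helps to shape the decoding site, measured 16.1, 17.3, 18.9, 13.01 and 20.4 CPM in control, 22.1 and 26.0 CPM in DOCA, and 11.02, 19.2 and 21.3 CPM with JK07, so that both DOCA libraries lay above every control. Its log2 fold change of 0.49 did not pass (edgeR adjusted p = 0.214), and on log2(TPM + 1) with limma it was -0.04. RPL28 was also above every control in both DOCA libraries, at 14.3 and 18.3 CPM against 7.06 to 12.4 CPM (log2 fold change 0.66, adjusted p = 0.121). RPS14, the gene of the 5q- syndrome, measured 8.08 to 13.6 CPM in control but 7.04 and 15.6 CPM in DOCA libraries 6 and 7. Its log2 fold change of 0.15 (adjusted p = 0.776) was -0.54 without library 7 and -0.43 on log2(TPM + 1). RPL28, RPL35, RPS9, RPS14, RPS15 and RPS20 were the 6 members with a log2 fold change above 0, named here after their values were seen. On log2(TPM + 1) and on log2(TPM + 0.1), RPL28 alone of these 6 stayed above 0, at 0.13 on both, and none passed. The TPM were not scaled by TMM, and the median over all members was -1.32 and -1.56 on these scales, against -1.04 by edgeR. Without library 7, RPL35, RPS14, RPS15 and RPS20 were below 0. Of the 56 members above 0 in both DOCA libraries, 32 were higher in library 7 than in library 6 and 24 lower.

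The paralogs, copies whose product can replace the common protein, gave 3 kinds of result. RPS27L, a p53-induced copy of RPS27, was listed at 0 in both DOCA libraries, while it measured 1.90, 1.89, 1.31, 1.45 and 1.93 CPM in control and 1.88, 1.24 and 1.03 CPM with JK07. RPL26L1, the copy of RPL26, was also listed at 0 in both DOCA libraries and measured 0.442 to 1.06 CPM in control and 0.422 to 0.948 CPM with JK07. Both passed the test (edgeR adjusted p = 7.39e-05 and 0.0017), but these p-values take the listed 0 as measured, and no fold change is read from it. Their common forms also fell. RPS27 fell by 1.83 (adjusted p = 0.00774), from 8.71 to 14.2 CPM to 4.27 and 1.97 CPM, and RPL26 as above. RPL22, whose paralog RPL22L1 is not analysed here, fell by 1.49 (adjusted p = 0.00614), from 2.70 to 3.72 CPM to 0.845 and 1.54 CPM. RPL7L1, which acts in assembly of the large subunit, measured 4.44 to 7.09 CPM in control and 3.28 and 3.04 CPM in DOCA, without overlap, and did not pass (log2 fold change -0.69, adjusted p = 0.0938).

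Of the last pair, RPL3L, the copy of RPL3 made mainly in heart and skeletal muscle, did not pass in any comparison, and neither did RPL3. RPL3 measured 12.5 to 19.6 CPM in control, 12.5 and 13.7 CPM in DOCA and 9.01 to 15.5 CPM with JK07 (log2 fold change -0.23, edgeR adjusted p = 0.523, for DOCA against control, and 0.01 with upper quartile scaling). RPL3L made up 5.41, 19.3, 10.1, 11.5 and 4.29% of the TPM of both genes in control, 13.6 and 4.23% in DOCA, and 11.9, 13.1 and 29.1% with JK07. The 3 groups overlapped. The log2 ratio of RPL3L to RPL3 was -3.36 ± 0.965 (SD, n = 5) in control, -3.58 ± 1.30 (n = 2) in DOCA and -2.30 ± 0.883 (n = 3) with JK07. In exact two-sided permutation tests it differed by -0.23 between DOCA and control (p = 0.857, smallest possible 0.0952), by 1.28 between DOCA plus JK07 and DOCA (p = 0.6, smallest possible 0.2) and by 1.06 between DOCA plus JK07 and control (p = 0.179, smallest possible 0.0357). Adjusted over these 3 tests the values were 0.857, 0.857 and 0.536.

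With JK07 added to DOCA, 12 of 58 members were higher than with DOCA alone and 0 were lower (edgeR adjusted p under 0.05). These were 7 of 30 large subunit genes, with a median log2 fold change of 0.67, and 5 of 28 small subunit genes, with a median of 0.44. Of all genes tested, 14.7% were called higher and 2.25% lower, and the median was 0.55, so the members' share of 20.7% and median of 0.56 were near the background. Leaving out genes listed at 0 in both DOCA libraries, the members had 10 of 56 higher (17.9%) with a median of 0.55, and all genes 7.61% with a median of 0.15. That subset too was chosen by the DOCA values under test. Under the stricter filter, 11 of 57 members and 19.4% of 12638 genes were called higher, so the members' share was again near the background. Of named genes spanning 15 kb or less, 8.13% were called higher. In 29 members, 14 large and 15 small, every JK07 library lay above both DOCA libraries, against 30.3% of all genes. The count depended on the scale: on log2(TPM + 1) with limma, 19 large and 18 small subunit genes rose, and with quality weights per library 0 did. The shares of all genes called higher in these fits are not given here. The median over all genes was 0.52 on log2(TPM + 1) and 0.81 with quality weights, against 1.11 and 0.61 for the members. This comparison shares the DOCA libraries with the one above, so the same low values enter both.

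Of the members that passed, RPL23 rose by 1.11 (SE 0.18, edgeR adjusted p = 0.00168) and RPS3A by 1.08 (SE 0.19, adjusted p = 0.00273). RPS6 rose by 1.04 (adjusted p = 0.00655), RPL26 by 1.36 (adjusted p = 0.0102), RPS4X by 1.32 (adjusted p = 0.0131), RPL6 by 0.98 (adjusted p = 0.0148), RPL9 by 1.13 (adjusted p = 0.0335) and RPL7 by 0.88 (adjusted p = 0.0369). RPL26L1 and RPS27L, listed at 0 in DOCA, were detected in all 3 JK07 libraries and also passed.

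Several of these calls rested on single libraries. RPL6 was at 0.76 (adjusted p = 0.051) without library 10, and RPS4X at 1.13 (adjusted p = 0.0666) without library 6 and 1.19 (adjusted p = 0.0531) without library 8. RPL9 lost its call without library 4, 7, 8, 9 or 10 (adjusted p up to 0.112) and RPL7 without 1, 2, 6, 7, 8, 9 or 10 (up to 0.104). RPL23, RPL26, RPS3A and RPS6 passed with each of the 10 libraries left out in turn.

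**Figure D4:**
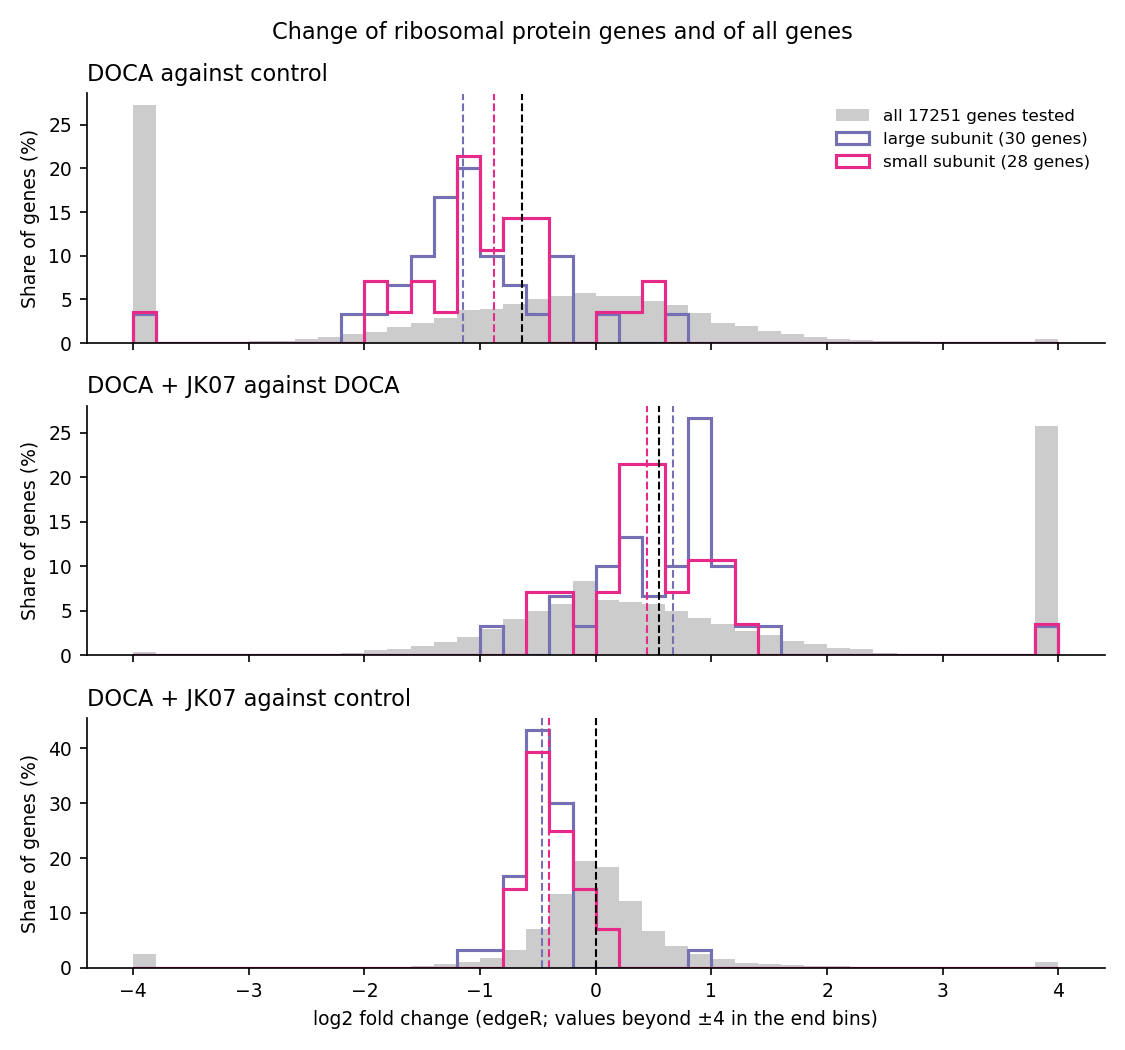
Distribution of log2 fold changes over all 17251 genes tested (grey) and over the large and small subunit genes (outlines) in the 3 comparisons, as the share of each set in bins; dashed lines are medians, black for all genes. The members' medians are -1.15 and -0.88 for DOCA against control, 0.67 and 0.44 for DOCA plus JK07 against DOCA, and -0.46 and -0.41 for DOCA plus JK07 against control, where that of all genes is 0.

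DOCA plus JK07 against control gave no call in any gene, by edgeR's test at an adjusted p under 0.05 (0% of all genes lower and 0% higher). Yet 55 of 58 members had a log2 fold change under 0, against 50.1% of all genes, with a median of -0.46 for the large and -0.41 for the small subunit against 0 for all genes. At an unadjusted p under 0.05, 19 members were lower and 0 higher, 11 large and 8 small (32.8%, against 1.98% of all genes). DESeq2 called 3 large and 1 small subunit gene lower at an adjusted p under 0.05, and the share of all genes it called is not given here. At an unadjusted p under 0.05 DESeq2 had 30 members lower, against 4.34% of all genes. In 17 members, 11 large and 6 small, every JK07 library lay below every control (29.3%), which held for 2.45% of all genes. The exceptions in sign were RPL3L, RPS9 and RPS20, at 0.84, 0.00 and 0.09.

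The members share libraries, so these counts are not independent observations. In JK07 libraries 8, 9 and 10, 46, 25 and 36 of 58 members lay below all 5 controls, and in DOCA libraries 6 and 7 it was 49 and 47. Of all genes tested, 14.0, 15.2 and 18.9% lay below all 5 controls in libraries 8, 9 and 10, and 38.4 and 39.7% in libraries 6 and 7. Library 8 had the lowest summed CPM of its group and the most members below the controls. Without it, 6 members were lower at an unadjusted p under 0.05 in place of 19 (1.77% of all genes), the median over members was -0.36, and 20 members lay below every control (6.55% of all genes). Without control library 5, the highest of its group, 8 members were lower at that p (1.62% of all genes) and 17 lay below every control (3.76%). Without library 1, 2 or 10 the first count was 9, 11 or 12, against 1.45, 1.56 and 1.74% of all genes. Depth outside ribosomal RNA and the mitochondrial genome overlapped between these groups, at 9029488 to 12906391 counts with JK07 and 8668685 to 13942689 in control. RPL10A, which shows the largest such difference of the members, measured 17.4, 22.4, 17.1, 18.9 and 23.8 CPM in control and 8.74, 12.97 and 7.64 CPM with JK07, without overlap (log2 fold change -1.03, SE 0.24, edgeR adjusted p = 1). RPS3A, at -0.68 (SE 0.15), was lowest among the small subunit genes. Both were chosen for their values, and DESeq2 called both lower (adjusted p = 0.00635 and 8.58e-05).

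By subunit, the ratio of means of the summed level between DOCA plus JK07 and control was 0.719 ± 0.141 for the large and 0.784 ± 0.165 for the small subunit. Between DOCA plus JK07 and DOCA the ratios were 1.39 ± 0.191 and 1.20 ± 0.282.

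Of the 4 proteins of the ribosome that were listed beside the members because the name rule does not reach them, 1 passed in DOCA against control. It was RACK1, a signalling scaffold on the small subunit, which fell by 0.66 (edgeR adjusted p = 0.0293), from 14.6 to 20.2 CPM to 10.1 and 10.4 CPM. It did not pass without library 1, 2, 4, 6 or 7 (adjusted p up to 0.1). FAU, whose message encodes a ribosomal protein fused to a ubiquitin-like protein, was at -1.78, and RPL36AL, a copy of RPL36A, was at 0.23. Neither passed.

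Translation factors fell in 12 of 35 and rose in 2 in DOCA against control (34.3 and 5.71%, median log2 fold change -0.20). The shares over all genes were 19.7 and 5.73%, and their median of -0.63 lay below that of the list. With upper quartile scaling 8 fell and 5 rose (median 0.04), and with quality weights per library 0 fell and 0 rose. EIF3H fell by 1.34 (edgeR adjusted p = 0.000349) and EIF3E by 1.72 (adjusted p = 0.000508), both subunits of initiation factor 3, and TPT1, whose message carries a terminal oligopyrimidine tract, by 1.51 (adjusted p = 0.002). EIF3H measured 10.4 to 12.9 CPM in control, 4.25 and 5.32 CPM in DOCA, and 8.11 to 9.04 CPM with JK07. With JK07 added to DOCA, 5 of 35 rose (14.3%, near the 14.7% of all genes) and 2 fell. EIF3H rose by 0.85 (adjusted p = 0.00833) and EIF3E by 1.05 (adjusted p = 0.0138; 0.94 and 0.0541 without library 8), while EIF3B fell by 1.29 (adjusted p = 0.00972; -0.70 and 0.0521 without library 6).

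Of 53 ribosome assembly factors tested, 13 rose (24.5%) and 2 fell (3.77%) in DOCA against control, with a median of 0.33. Over all genes 5.73% were called higher and 19.7% lower, with a median of -0.63. BOP1, of the complex that processes large subunit RNA, measured 3.37 to 4.57 CPM in control, 17.1 and 10.1 CPM in DOCA, and 4.30 to 6.16 CPM with JK07, and rose by 1.74 (edgeR adjusted p = 0.000439). NOC2L rose by 2.10 (adjusted p = 0.00143), from 3.93 to 6.13 CPM to 30.5 and 11.9 CPM. With JK07 added, 13 fell (24.5%) and 1 rose (1.89%), against 2.25% lower and 14.7% higher over all genes. Among those that fell were BOP1 by 1.36 (adjusted p = 0.00532) and TCOF1, which acts in transcription of ribosomal RNA genes, by 1.19 (adjusted p = 0.00745). NOP10 was listed at 0 in both DOCA libraries. The list's direction rested on library 6. Without it the assembly median was -0.23 in DOCA against control and 0.22 with JK07 added, against -0.95 and 0.79 for all genes. Without library 7 the assembly median in DOCA against control was 0.70, against -0.82 for all genes. On log2(TPM + 1) with limma, 6 rose and 9 fell, with a median of -0.21 against -0.39 for all genes. Without library 6 the members' median log2 fold change in DOCA against control was -1.03, against -0.95 for all genes and -0.23 for the assembly genes.

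Of 26 regulators of ribosome production and of growth signalling, 5 fell (19.2%) and 4 rose (15.4%) in DOCA against control, so the share that fell was near the 19.7% of all genes. The share that rose was above the 5.73% of all genes, and the median was 0.38 against -0.63. On log2(TPM + 1) with limma 8 fell and 0 rose, and with quality weights per library 1 fell and 0 rose. EIF4EBP2, a repressor of cap-dependent translation, fell by 1.42 (edgeR adjusted p = 0.00113) and rose by 1.07 with JK07 added (adjusted p = 0.00932). AKT1S1, an inhibitory partner of mTOR, rose by 1.04 (adjusted p = 0.00798). DEPTOR rose by 1.94 with JK07 added (adjusted p = 0.0103; 1.75 and 0.0551 without library 6). GABPB1 was listed at 0 in both DOCA libraries. All 13 messages of the mitochondrial genome fell in DOCA against control (median -2.93) and all 13 rose with JK07 added to DOCA. With quality weights per library 3 of 13 fell and 0 rose in these comparisons, and without library 7 the counts were 11 and 12. Their part in the members' change was not tested. No gene of these lists passed edgeR's test in DOCA plus JK07 against control, where DESeq2 called 2 translation factors lower.

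**Figure D5:**
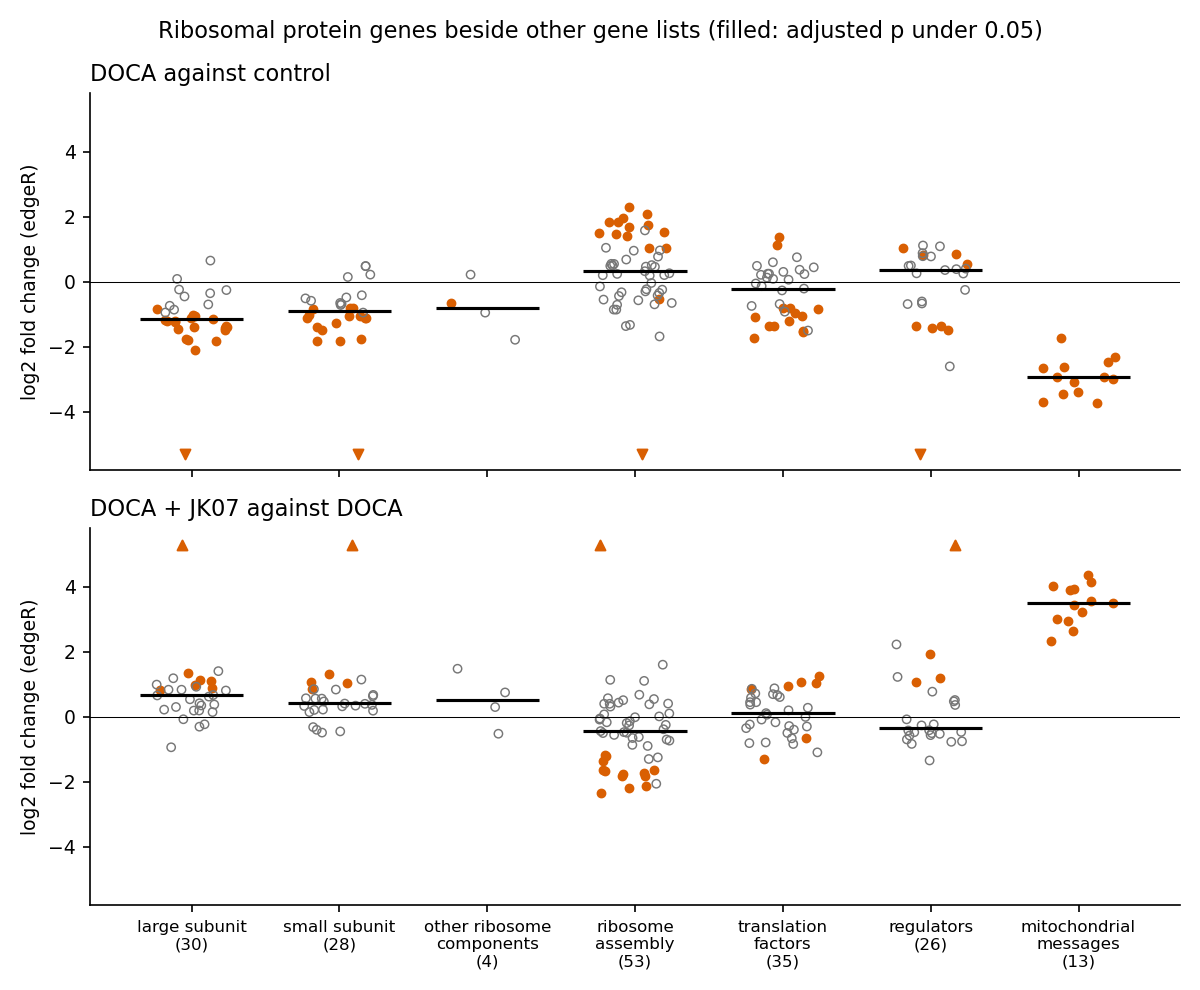
Log2 fold change of each tested gene of the 2 ribosomal protein sets and of the other lists, for DOCA against control and DOCA plus JK07 against DOCA; filled points passed at an adjusted p under 0.05, black lines are medians and triangles mark values beyond ±5, from genes listed at 0 in both DOCA libraries. The subunit sets lie mostly below 0 in the upper panel, where 13 filled assembly genes lie above it.

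The members also hosted 32 small nucleolar RNA genes within 16 of them, of which 17 were tested. These guide chemical modification of ribosomal RNA and are cut from introns. In DOCA against control 0 of these 17 were lower and 1 was higher, against 19.7 and 5.73% of all genes. The 1 was a SNORD15 within RPS3, at 0.484 to 1.08 CPM in control and 3.33 and 1.47 CPM in DOCA (log2 fold change 1.63, edgeR adjusted p = 0.0303). Its host fell by 0.80. This SNORD15 overlaps RPS3 on the same strand, and the part of host reads in its value was not tested. Summed over the hosted RNAs, library 6 held 14.5 CPM, above all other libraries, and library 7 held 3.71 CPM, within the 3.46 to 6.53 CPM of control. The host genes summed to 137 CPM in both, against 195 to 271 CPM in control.

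Finally, 9 identifiers without a name in the files are named as ribosomal protein genes by the reference gene table alone (RPL7A, RPL13A, RPL14, RPL23A, RPL36A, RPS2, RPS7, RPS24 and RPS27A) and lie outside the rule. In DOCA against control 4 of 9 fell (44.4%) and 0 rose, with a median of -0.86. All genes had 19.7% lower and 5.73% higher there, with a median of -0.63. RPL14, with the lowest adjusted p of the 9, measured 8.59 to 12.4 CPM in control, 2.10 and 2.04 CPM in DOCA and 6.23 to 7.71 CPM with JK07, and fell by 2.31 (SE 0.23, edgeR adjusted p = 7.84e-05). It rose by 1.80 with JK07 added (adjusted p = 0.000422), the 1 call of the 9 there. In that comparison 4 of the 9 were below 0 and their median was 0.01, against 0.56 for the members. All 9 were below 0 in DOCA plus JK07 against control, with a median of -0.41 and no call.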

How the data were processed

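The submitters' processing notes name StringTie, SAMtools and edgeR and the build Sscrofa11.1. The sources used here give no aligner, version or annotation release. A coverage signal, an FPKM and a TPM for each of 35670 identifiers stand in each library's table, per the file headers. The authors deposited estimated counts, as whole numbers, in a separate table that names no genes. Identifiers were joined to it in sorted order, and zeros then matched in 99.998% of values (62.6% when shifted by 1 line). For genes spanning under 1000 bp, 80.9% of 11109 estimated counts lay within 0.5 counts of the deposited coverage multiplied by length and divided by 75. All count columns were mapped to libraries by name. The deposited FPKM entered no test.

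The deposited estimated counts were tested in R 4.3.3 by edgeR 4.0.16 (quasi-likelihood F test, TMM scaling, filterByExpr, group as the only term, all 10 libraries in 1 model, Benjamini-Hochberg over all genes tested, threshold 0.05). Levels within a gene are CPM after TMM, and levels between genes are the deposited TPM. The test script was checked on simulated data. Alternatives were DESeq2 1.42.0, limma 3.58.1 on log2(TPM + 1) and log2(TPM + 0.1), quality weights per library, other scalings and filters, and each library left out in turn. Members and gene lists were chosen with earlier results of these data known. Named were, per comparison, the 6 called members of each subunit with the lowest adjusted p, the 4 of each subunit with the highest TPM, paralogs, members with a textbook role, members at 0 in a whole group, and the 3 genes of each other list with the lowest adjusted p. In DOCA plus JK07 against control all adjusted p were 1, so that rule named none. The values of 2 genes that entered the counts are not reported here by name. No sequences were analysed here.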

Additional observations from a re-analysis of the deposited data

Results flagged for a closer look

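In 4 of 61 groups examined, a single control library stood apart from the other 4 by more than the 95% limit of Dixon's test, a limit that chance passes in about 1 of 20 groups. In each the control library was the highest. RPL27A measured 21.2 CPM in library 1 and RPL7L1 7.09 CPM in library 1. RPL35 measured 13.5 CPM and RPS20 20.4 CPM in library 5.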

How the results depend on the processing

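No paired analysis was possible because the labels number the libraries 1 to 10 and no number is shared between groups. The counts of members lower in DOCA against control stayed within 1.5 times of 20 large and 16 small subunit genes under the alternatives run, apart from quality weights per library, which gave 0 and 0. Leaving out each library gave 15 to 20 and 11 to 15. Where library 6 or 7 was left out, the lone DOCA library was assumed to vary like the other groups. Upper quartile scaling and DESeq2 each called 1 large subunit gene higher. Upper quartile scaling moved the median log2 fold change of all genes from -0.63 to -0.39 and that of the members from -1.04 to -0.80, and the summed large subunit ratio from 0.518 to 0.614 for DOCA against control and from 1.39 to 1.17 for DOCA plus JK07 against DOCA. The difference between the members' and all genes' median was -0.41, and -0.07 without library 6 and -0.23 without library 7. For the small subunit alone it was -0.25, and 0.05 without library 6 and -0.03 with quality weights.

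The members' median with JK07 added to DOCA lay from 0.26 below to 0.59 above that of all genes across the 21 alternatives. For DOCA plus JK07 against DOCA, the 7 large subunit genes higher became 4 with relative log expression scaling, 3 with upper quartile scaling, 19 and 19 on log2(TPM + 1) and log2(TPM + 0.1), 0 with quality weights, 2 with only the 2 groups compared and 4 when scaled to the total outside ribosomal RNA and mitochondrial genome, a scaling chosen after seeing the data. Leaving out each library gave 4 to 8, with 4 without library 8, 9 or 10. The 5 small subunit genes became 18, 19, 0 and 2 under TPM with 1 and 0.1 added, quality weights and that total, and 3 to 5 with each library left out, with 3 without library 8. In the large subunit 1 gene was lower under relative log expression scaling, upper quartile scaling, DESeq2 and the stricter filter, and 0 to 1 with each library left out.

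For DOCA plus JK07 against control, DESeq2 called 3 large, 1 small and 2 other list genes lower, against 0. The share of all genes that DESeq2 called lower is not given here. The 19 members lower at an unadjusted p, a count added after seeing the data, became 30 with DESeq2 and 2 and 2 on the TPM scales. It was 29 with only the 2 groups compared, and 6 to 22 with each control or JK07 library left out. Among all genes 1.98% were lower at that p by edgeR, 4.34% with DESeq2, and 0.829 and 0.765% on the TPM scales. That share was 3.62% with only the 2 groups compared, and 1.35 to 1.77% with each control or JK07 library left out. The members' median lay below that of all genes by 0.31 to 0.49 in the 21 alternatives.

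In the other lists together, the mitochondrial messages not counted, genes lower in DOCA against control (20) became 13, 36, 41 and 1 under upper quartile scaling, the TPM scales and quality weights, and 13 to 36 with each library left out. Genes higher (19) became 29 with upper quartile scaling, 29 with DESeq2, 6, 4 and 2 on the TPM scales and quality weights, and 7 to 33. With JK07 added to DOCA, genes lower (15) became 23, 27, 1, 1, 0 and 0 under upper quartile scaling, DESeq2, the TPM scales, quality weights and only the 2 groups compared, and 3 to 30. Genes higher (10) became 4, 32, 37, 0, 2 and 4 under upper quartile scaling, the TPM scales, quality weights, only the 2 groups compared and the total outside ribosomal RNA, and 6 to 25.

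Among the members named, changes of sign for DOCA against control were seen in values that did not pass: RPS9 at -0.036 and -0.041, RPS14 at -0.43 and -0.46, RPS15 at -0.37 and -0.42, RPS20 at -0.019 and -0.069 and RPL35 at -0.27 and -0.42 on the TPM scales, RPL3 at 0.013 with upper quartile scaling, and, leaving out each library, RPS14 from -0.54 to 0.62, RPS15 from -0.84 to 0.83, RPS20 from -0.036 to 0.87, RPL35 from -0.32 to 0.41, RPLP2 from -0.58 to 0.013, and RPL3L from -1.47 to 0.26, at 0.03 without library 2. The log2 ratio of RPL3L to RPL3 was 0.15 with 1 TPM added and ranged from -1.15 to 0.69 with each library left out, at 0.10 without library 2. The cause of these changes was not tested. Counting the 9 members named by the reference table alone, chosen after seeing the data, gave 22 large subunit genes lower in DOCA against control.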
